A study of Arabidopsis thaliana with 24 samples.

Results

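The 9 genes described here encode proteins that make ribosomes in the nucleolus, and they were chosen by locus out of 37686 loci measured in detached leaf blades of Arabidopsis thaliana. They are the fibrillarins FIB1 (AT5G52470) and FIB2 (AT4G25630), NOP56 (AT1G56110), the NOP58 pair AT5G27120 and AT3G05060, CBF5 (AT3G57150, also named NAP57), the nucleolin NUC1 (AT1G48920), the DEAD-box RNA helicase PRH75 (AT5G62190) and the pumilio protein APUM23 (AT1G72320). All 9 passed the filter on low values in every fit. These genes, and the lists of other genes used below, were chosen with earlier results of these data known. Their counts beside shares of all genes are therefore descriptions and no independent test.

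Seedlings were Col-0 plants, called WT here, or coi1-2 mutants, called coi1; all were 12 d old, and had grown at 22 °C with 1% sucrose in days of 16 h light and 8 h dark. Blades of the first rosette leaves were cut from their petioles and laid on B5 medium without sucrose under light for 24 h a day, and whole explants were frozen at t0 (the cut), or 10 min and 30 min later, or at 1 h and 2 h, or later at 4 h, then 8 h and finally 12 h. COI1 is the F-box protein through which jasmonate, the wound hormone, is perceived, and coi1-2 is known as a leaky allele with a substitution. WT had 1 labelled library at each of 8 times and coi1 had 2, which gave 24 libraries. The WT table also holds 8 columns numbered as replicate 2, 1 at each time, which matched no sample label used here and were left out, so n = 1 in WT follows from that matching. Nothing in the labels says whether the coi1 libraries came from separate plants, so the p-values measure the spread between these libraries, which may be technical. Time after detachment cannot be told apart from time of day, from the loss of sucrose or from the change of light, since all explants shared them.

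A ribosome starts as a long precursor RNA that RNA polymerase I transcribes in the nucleolus. Small nucleolar ribonucleoproteins then modify that precursor: box C/D particles, built of fibrillarin, NOP56, NOP58 and a small RNA-binding protein, methylate riboses, and box H/ACA particles, built around the dyskerin homologue CBF5, convert uridine to pseudouridine. Nucleolin acts on the ribosomal RNA genes and on early cleavage of the precursor, helicases such as PRH75 act on RNA structure, and APUM23 is needed for normal processing of the precursor. In plants, such genes are known to be active in growing tissue and to respond to sugar, and their promoters often carry a telo-box together with site II elements.

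The sequence before the annotated transcript start is shown for 4 box C/D genes, because these hold the motifs of the group at their densest (FIB1, NOP56, AT5G27120) or hold none of them (FIB2). Sequences are from RefSeq on the build TAIR10.1, read along the strand of the gene and ending at the base before the annotated start. Capitals mark the telo-box AAACCCTA and the site II element TGGGCC, either of them on either strand, so that GGCCCA is a site II element read from the other strand.
FIB1, chr5:21293927-21294146, plus strand: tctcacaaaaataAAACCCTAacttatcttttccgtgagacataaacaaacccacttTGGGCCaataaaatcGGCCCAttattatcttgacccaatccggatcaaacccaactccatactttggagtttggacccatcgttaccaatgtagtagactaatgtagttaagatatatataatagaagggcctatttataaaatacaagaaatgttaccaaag
FIB2, chr4:13073870-13074089, plus strand: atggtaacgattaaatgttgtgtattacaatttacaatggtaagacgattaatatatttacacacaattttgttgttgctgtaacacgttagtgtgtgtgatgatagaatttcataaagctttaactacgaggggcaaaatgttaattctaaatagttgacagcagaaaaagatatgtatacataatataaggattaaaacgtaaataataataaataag
NOP56, chr1:20986953-20987112, minus strand: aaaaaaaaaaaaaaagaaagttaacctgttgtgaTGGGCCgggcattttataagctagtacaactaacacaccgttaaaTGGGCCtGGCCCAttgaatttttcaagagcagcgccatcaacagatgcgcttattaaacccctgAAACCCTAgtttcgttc
AT5G27120, chr5:9540701-9540860, plus strand: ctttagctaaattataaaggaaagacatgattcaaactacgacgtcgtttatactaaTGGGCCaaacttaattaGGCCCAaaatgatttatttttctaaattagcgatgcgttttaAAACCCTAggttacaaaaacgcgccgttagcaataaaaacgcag

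Motifs were counted in the 300 bases before the start of 27443 genes, on both strands. The telo-box stood in 3 of the 9 promoters, those of FIB1, NOP56 and AT5G27120, and in 5.21% of all promoters. TGGGCC stood in 4 of 9, the same 3 with AT3G05060, against 14.6% of all, and the related site II element TGGGCT in 2 of 9, CBF5 and NUC1, against 13.5%. A telo-box and a site II element of either form occurred together in 3 of 9 promoters against 1.65% of all, and in 3 of the promoters of 51 other ribosome biogenesis genes. FIB2, APUM23 and PRH75 had none of these letters in the window. The telo-box of FIB1 lay 207 to 200 bases before the start, that of AT5G27120 44 to 37 bases and that of NOP56 17 to 10 bases. No test was made on motifs, and a match is a stretch of letters, not a measured binding site.

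On TAIR10.1 the fibrillarin genes lie at chr5:21294147-21296819 (FIB1) and chr4:13074090-13076432 (FIB2), each on the plus strand with 7 exons. NOP56 lies at chr1:20984273-20986952 on the minus strand with 8 exons. The NOP58 pair lies at chr5:9540861-9544065 on the plus strand and chr3:1412867-1416056 on the minus strand, each with 9 exons, and the annotation describes both proteins as NOP56-like. CBF5 at chr3:21153815-21156075 on the minus strand has 1 exon, NUC1 at chr1:18098081-18101732 on the plus strand has 15, PRH75 at chr5:24980268-24984044 on the minus strand has 13, and APUM23 at chr1:27228059-27233167 on the minus strand has 11 or 12 by transcript.

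All values are TPM, the share of transcripts per gene after division by length, with every library brought to an equal sum, so that levels of different genes can be set side by side but a level is always a share of the library. The depth of the libraries is unknown, since TPM keeps no trace of it. The 9 genes together held between 229 TPM, in coi1 (1 h) (replicate 1), and 1726 TPM, in WT at 4 h. NUC1 was the most abundant by its mean over the 24 libraries, 255 TPM, followed by FIB1 with 112, NOP56 with 71.7 and PRH75 with 67.9. CBF5 averaged 42.8, AT3G05060 34.6, AT5G27120 32.6, FIB2 30.3 and APUM23 14.6 TPM. Between neighbours in this order from CBF5 down to FIB2, and between NOP56 and PRH75, the means lay closer together than the change of either gene over time.

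Across the libraries 17019 to 17840 loci reached 1 TPM, and chloroplast and mitochondrial genes held 0.0436% to 0.238% of TPM. The 5 leaf mesophyll markers summed to 38090 to 71490 TPM in every library, while STM, WUS, PLT1 and PLT2 of shoot and root meristems stood at 0 and CLV3 and WOX5 did not pass 0.13 and 0.3 TPM. COI1 averaged 17.2 ± 6.31 TPM over the WT times (SD, n = 8) and 17.3 ± 3.55 over the coi1 libraries (SD, n = 16), which checks no label because a substitution need not change the transcript level. These averages hide differences at single times. In the fit at each time described below, COI1 was called higher in coi1 at 1 h (log2 difference 0.99) and lower at 2 h (-0.62), each against 1 WT library. It was not called at the other times. The coi1 libraries of 30 min differed from each other, as root mean square over all genes, by 1.05 on the log2 scale and those of t0 by 0.697, against 0.318 to 0.502 at the other times.

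Every member but APUM23 went through the same sequence in coi1 leaves: a low at 1 h, a high at 4 h, and lower values at 12 h. In WT leaves all 9 genes stayed within 2-fold of t0 on the log2(TPM + 1) scale until 2 h and were at their highest in the 4 h library. A 1 h library was the lowest of the 16 coi1 libraries for 8 of 9 members and for 19% of all genes, APUM23 being the exception.

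Both fibrillarins, the methyltransferases of the box C/D particle, followed this course, FIB2 more steeply. In WT, FIB1 stood at 81.41 TPM at t0 and at 89.97, 81.85, 84.17, 69.23, 255.17, 97.46 and 55.04 at the 7 later times in order. The coi1 libraries (replicate 1, then replicate 2) held 95.36 and 101.30 TPM of FIB1 (t0), 57.36 and 67.89 (10 min), 58.89 and 193.02 (30 min), 38.45 and 43.20 (1 h), 117.32 and 95.27 (2 h), 216.00 and 231.26 (4 h), 200.90 and 141.16 (8 h), and 119.61 and 84.83 (12 h). The 1 h libraries were the lowest of the 16 and the 4 h libraries the highest, and the 30 min libraries stood on either side of t0. FIB2 in WT held 9.56 TPM at t0 and then 19.61, 13.36, 12.26, 15.38, 102.26, 22.23 and 14.17. In coi1 FIB2 held 20.49 and 23.36 TPM (t0), 7.53 and 11.12 (10 min), 7.92 and 28.22 (30 min), 4.27 and 4.11 (1 h), 27.26 and 23.51 (2 h), 86.31 and 92.15 (4 h), 92.04 and 33.48 (8 h), and 33.17 and 23.07 (12 h). The mean of FIB2 in the 4 h libraries was 21.3 times its mean at 1 h, the largest ratio of the 9 genes, against 5.48 times for FIB1.

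The scaffold proteins of the same particle, NOP56 and the NOP58 pair, are the arms that hold fibrillarin and the guide RNA. NOP56 in WT held 43.41 TPM at t0 and then 58.06, 46.60, 46.14, 38.45, 194.80, 54.74 and 34.34. In coi1 NOP56 held 62.63 and 72.14 TPM (t0), 32.30 and 43.65 (10 min), 33.72 and 84.69 (30 min), 15.97 and 18.57 (1 h), 72.92 and 69.72 (2 h), 167.25 and 171.15 (4 h), 159.79 and 84.98 (8 h), and 65.79 and 48.35 (12 h). The pair at 1 h thus lay below and the pair at 4 h above all coi1 libraries of the other times. AT5G27120 in WT held 16.07 TPM at t0 and then 21.74, 16.02, 17.39, 16.93, 116.82, 25.18 and 15.51, and its 4 h library was 4.64 times the next highest WT library. The coi1 libraries held 21.79 and 26.34 TPM of AT5G27120 (t0), 10.51 and 14.72 (10 min), 11.37 and 37.55 (30 min), 4.98 and 5.38 (1 h), 26.87 and 23.67 (2 h), 87.70 and 89.97 (4 h), 85.34 and 37.14 (8 h), and 31.93 and 20.95 (12 h). Its partner AT3G05060 also had its coi1 low at 1 h and its high at 4 h, with a narrower span. AT3G05060 in WT held 23.20 TPM at t0 and then 31.88, 26.01, 23.95, 20.08, 81.22, 25.41 and 16.41. In coi1 AT3G05060 held 29.81 and 35.59 TPM (t0), 21.07 and 25.71 (10 min), 23.54 and 41.41 (30 min), 13.31 and 15.05 (1 h), 46.08 and 43.60 (2 h), 66.20 and 66.26 (4 h), 62.70 and 34.81 (8 h), and 33.21 and 23.13 (12 h).

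CBF5, the pseudouridine synthase of the box H/ACA particle, moved like the box C/D genes. CBF5 in WT held 29.03 TPM at t0 and then 42.62, 29.69, 27.61, 22.40, 112.67, 29.08 and 18.68. In coi1 CBF5 held 40.93 and 50.44 TPM (t0), 22.30 and 29.03 (10 min), 23.29 and 43.38 (30 min), 9.76 and 14.04 (1 h), 51.32 and 49.82 (2 h), 91.71 and 88.48 (4 h), 90.74 and 45.86 (8 h), and 37.10 and 25.91 (12 h). The 4 h libraries and the first 8 h library were the highest of the 16, and the 1 h libraries the lowest.

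NUC1, the nucleolin, had the highest levels of the 9 genes. In WT it stood at 128.29 TPM at t0 and then at 217.11, 160.47, 136.04, 95.72, 713.59, 133.53 and 77.00. The coi1 libraries held 250.61 and 266.28 TPM of NUC1 (t0), 181.24 and 216.05 (10 min), 190.58 and 193.81 (30 min), 98.02 and 137.95 (1 h), 389.50 and 394.31 (2 h), 595.33 and 591.64 (4 h), 435.02 and 210.84 (8 h), and 175.53 and 121.62 (12 h). Its coi1 libraries of 2 h were above all those of t0 to 1 h, while the WT library of 2 h was below the WT libraries of t0 to 1 h.

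The helicase PRH75 and the processing factor APUM23 spanned less. PRH75 in WT held 56.55 TPM at t0, 81.47 (10 min), 66.64 (30 min), 58.02 (1 h), 32.72 (2 h), 129.63 (4 h), 36.96 (8 h) and 27.71 (12 h). In coi1 PRH75 held 87.02 and 86.42 TPM (t0), 72.35 and 76.31 (10 min), 73.06 and 60.19 (30 min), 32.17 and 42.35 (1 h), 82.44 and 98.46 (2 h), 99.13 and 101.73 (4 h), 91.81 and 54.10 (8 h), and 45.18 and 36.57 (12 h). In coi1 PRH75 was therefore low at 1 h and again at 12 h, and its 4 h libraries were little above t0. APUM23 in WT held 12.98 TPM at t0 and then 13.63, 14.78, 14.32, 11.20, 19.64, 10.94 and 10.05. In coi1 APUM23 held 15.05 and 14.59 TPM (t0), 12.00 and 12.83 (10 min), 13.21 and 16.41 (30 min), 12.52 and 14.02 (1 h), 17.89 and 19.72 (2 h), 18.63 and 17.21 (4 h), 17.47 and 13.89 (8 h), and 13.78 and 12.44 (12 h). Its coi1 libraries overlapped between most times, and its highest coi1 values came at 2 h.

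**Figure D1:**
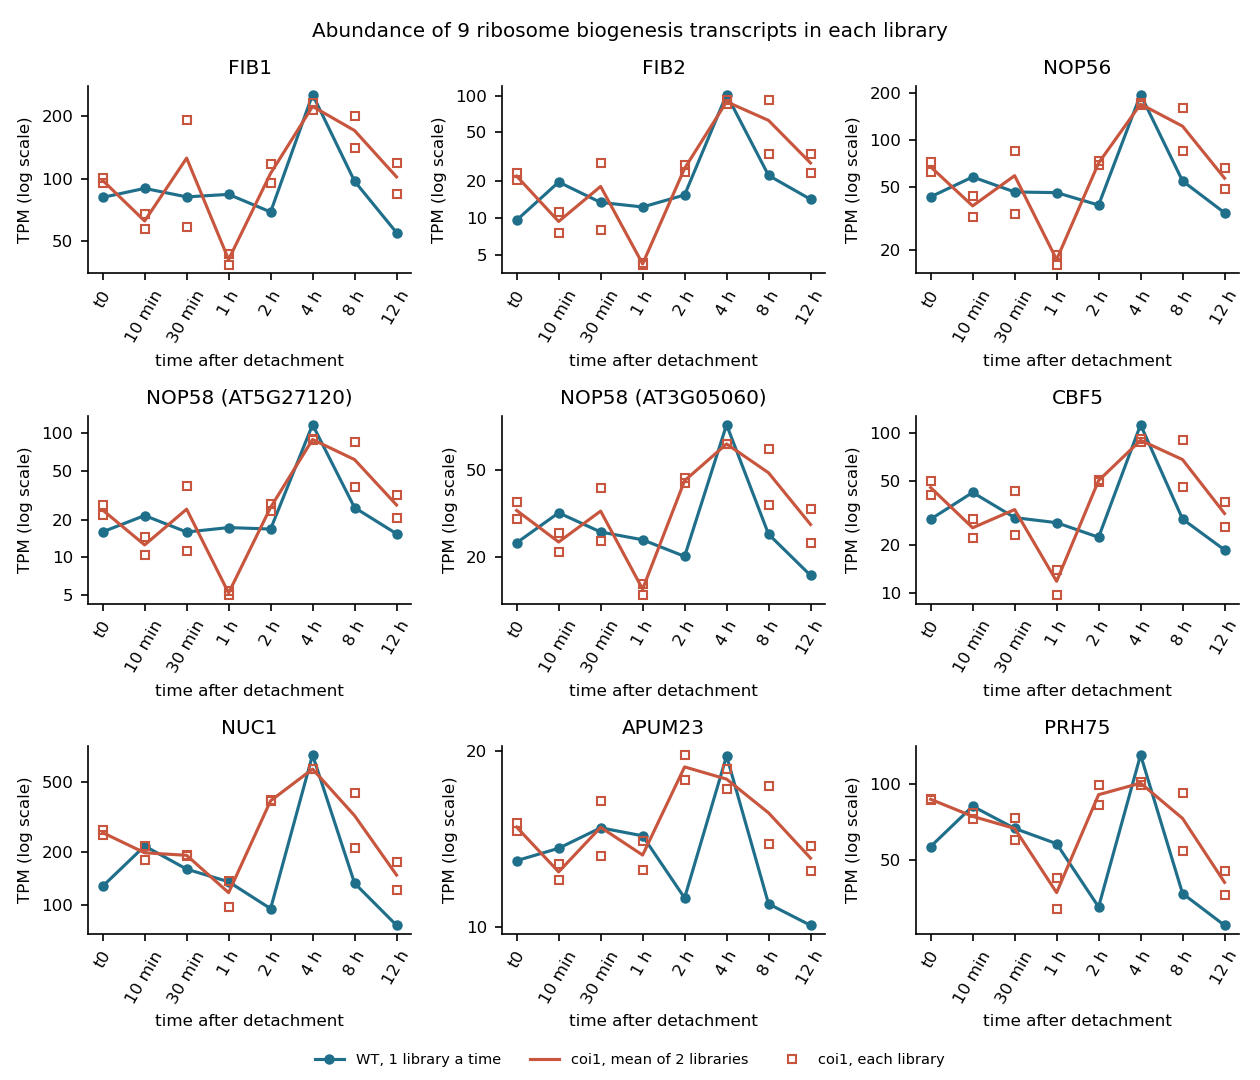
TPM on a log scale (each panel with its own range) of the 9 genes at 8 times after detachment. Blue points are the single WT libraries, red squares the coi1 libraries and red lines the mean of 2. All 9 genes had their highest WT value at 4 h, and 8 of 9 their lowest coi1 library at 1 h.

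Changes in coi1 were tested with limma on log2(TPM + 1) over 19323 genes, with p adjusted by Benjamini-Hochberg and called below 0.05; differences on this scale understate the change of low genes. At 1 h 8 of 9 members had fallen, where 20.5% of all genes were called lower and 10.7% higher. The exception was APUM23 at -0.15 ± 0.14 (log2 difference ± SE, adjusted p = 0.449). The difference was -2.14 ± 0.53 for FIB2 (adjusted p = 0.0128), -2.01 ± 0.49 for AT5G27120 (adjusted p = 0.0117) and -1.90 ± 0.39 for NOP56 (adjusted p = 0.00533). CBF5 stood at -1.87 ± 0.35 (adjusted p = 0.00357), FIB1 at -1.25 ± 0.43 (adjusted p = 0.0477) and PRH75 at -1.21 ± 0.23 (adjusted p = 0.00381). AT3G05060 (-1.15 ± 0.30, adjusted p = 0.0173) and NUC1 (-1.14 ± 0.30, adjusted p = 0.0163) fell least of the 8. Both 1 h libraries were below both t0 libraries for 9 of 9 members and for 45.4% of all genes. The median over the members was -1.25 and that over all genes -0.17. Without t0 replicate 2, or without 1 h replicate 1, only NOP56, CBF5 and PRH75 kept their calls, 3 of the 9 members; after rescaling the libraries by median of ratios 6 of 9 were called, FIB1 and AT3G05060 no longer among them.

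At 10 min the values were already below t0, but no member was called (0 of 9, against 0.533% of all genes; 2209 genes and 1 member, CBF5, had an unadjusted p below 0.05). Both 10 min libraries were below both t0 libraries for 9 of 9 members and 36.9% of all genes, with differences from -0.22 for PRH75 to -1.17 ± 0.53 for FIB2. At 30 min 0 of 9 were called against 9.23% of all genes, and none had an unadjusted p below 0.05. There the second library lay above the first in 8 of 9 members, PRH75 being the exception, by up to 3.56 times for FIB2. Without 30 min replicate 1 FIB1 stood 0.97 above t0 on the log2 scale, and without 30 min replicate 2 it stood at -0.73.

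Between 1 h and 4 h in coi1 8 of 9 members rose, where 17.8% of all genes were called higher. FIB2 rose by 4.12 ± 0.53 (adjusted p = 0.000441), AT5G27120 by 3.86 ± 0.49 (adjusted p = 0.000414), NOP56 by 3.22 ± 0.39 (adjusted p = 0.000336) and CBF5 by 2.84 ± 0.35 (adjusted p = 0.000381). The increases of FIB1 (2.43 ± 0.43, adjusted p = 0.00239), NUC1 (2.34 ± 0.30, adjusted p = 0.000428), AT3G05060 (2.15 ± 0.30, adjusted p = 0.000721) and PRH75 (1.42 ± 0.23, adjusted p = 0.00163) were smaller. APUM23 stood 0.41 ± 0.14 higher (adjusted p = 0.0585). Both 4 h libraries were above both 1 h libraries for 9 of 9 members and for 41.8% of all genes. This step was chosen with the low at 1 h and the high at 4 h already known. Leaving out any of its 4 libraries kept 8 of 9 calls.

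Against t0 the 4 h libraries were higher in 4 of 9 members by the test, NOP56 (1.32 ± 0.39, adjusted p = 0.0492), NUC1 (1.20 ± 0.30, adjusted p = 0.0257), AT5G27120 (1.85 ± 0.49, adjusted p = 0.0322) and FIB2 (1.98 ± 0.53, adjusted p = 0.0337), where 7.39% of all genes were called higher. FIB1 stood 1.18 higher (adjusted p = 0.0964), AT3G05060 1.00 (adjusted p = 0.0535) and CBF5 0.97 (adjusted p = 0.0978), and PRH75 0.21 (adjusted p = 0.592). Both 4 h libraries were above both t0 libraries in 9 of 9 members and 30.9% of all genes. None of these 4 calls held when any of the t0 or 4 h libraries was left out. With the 4 libraries fitted alone 7 of 9 members were called, and the count over all genes, in either direction, rose too, from 2708 to 4560.

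The high did not last. From 4 h to 12 h in coi1 7 of 9 members fell, where 7.25% of all genes were called lower and the median over all genes was 0.18. The step was -2.01 ± 0.30 for NUC1 (adjusted p = 0.00149), -1.28 ± 0.23 for PRH75 (adjusted p = 0.00383), -1.51 ± 0.35 for CBF5 (adjusted p = 0.0126) and -1.57 ± 0.39 for NOP56 (adjusted p = 0.0167). AT3G05060 (-1.23, adjusted p = 0.0162), AT5G27120 (-1.74, adjusted p = 0.0274) and FIB2 (-1.65, adjusted p = 0.046) were also called, and FIB1 (-1.14 ± 0.43, adjusted p = 0.0789) and APUM23 (-0.42 ± 0.14, adjusted p = 0.0562) were not. Both 12 h libraries were below both 4 h libraries in 9 of 9 members and 25.9% of all genes. Without 4 h replicate 1, 4 h replicate 2 or 12 h replicate 2 the count dropped to 2, NUC1 and PRH75, and without 12 h replicate 1 to 5. Against t0, PRH75 alone was lower at 12 h (-1.07 ± 0.23, adjusted p = 0.00822; 6.13% of all genes were called lower), a call lost without 12 h replicate 2. The 5 leaf mesophyll markers summed to 60970 and 56680 TPM in coi1 at 4 h and to 40180 and 38090 (12 h), and 2 of 5, the light-harvesting protein genes CAB1 (-1.73, adjusted p = 0.000453) and CAB3 (-4.55, adjusted p = 0.000158), were called lower, while RBCS1A (0.36), CA1 (1.02) and RCA (0.52) were not called. Their part in the result was not tested. At 2 h 0 of 9 members were called against t0 (25.6% of all genes) and at 8 h 0 of 9 (14.6%), with 1 member at an unadjusted p below 0.05 (2 h) and 2 (8 h). At 8 h the first library was above the second for 9 of 9 members, from 1.26 times for APUM23 to 2.75 times for FIB2. The members' median of replicate 1 minus replicate 2 was 0.90 on the log2 scale (8 h) and -0.87 (30 min). The median absolute difference over all genes was 0.17 (8 h) and 0.51 (30 min). Shares of all genes with the same order of libraries were not counted at either time.

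**Figure D2:**
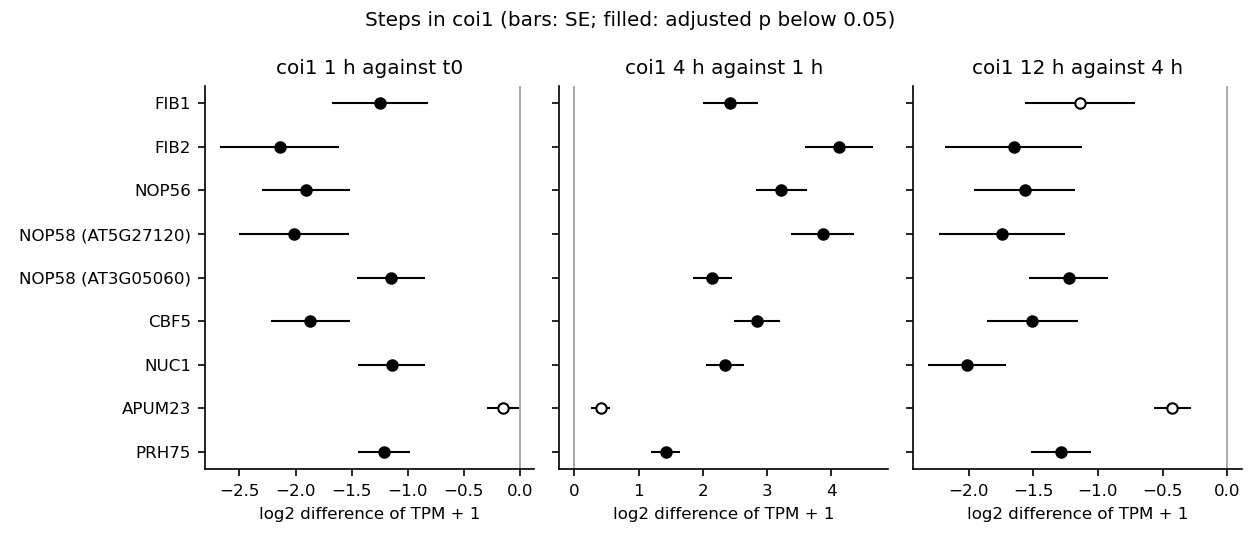
Log2 differences of TPM + 1 in coi1 for 3 steps, with 2 libraries at each time; bars are SE of the limma fit and filled points passed an adjusted p of 0.05. FIB2 and AT5G27120 have the largest rise (4.12 and 3.86) and APUM23 the smallest difference in each step.

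With 1 WT library a time matched to a label, single steps in WT carry no test; the 8 columns numbered as replicate 2 were not used. All 9 members had their highest WT value at 4 h, as had 21.2% of all genes, and for 7 of 9 the 4 h library was at least 2 times every other WT library, as for 2.79% of all genes. The exceptions were PRH75, at 1.59 times the next highest, and APUM23, at 1.33 times. From t0 to 4 h, 8 of 9 members were at least 2-fold higher, against 9.95% of all genes, from 2.29 times for PRH75 to 10.7 times for FIB2, with APUM23 at 1.51 times. From 4 h to 12 h 8 of 9 were at least 2-fold lower, against 10.3% of all genes, with a median log2 difference of -2.47. On the log2(TPM + 1) scale no member differed 2-fold from t0 up to 2 h, although FIB2 in plain TPM went from 9.56 to 19.61 at 10 min; on the former scale 4.54%, 8.19%, 12.1% and 9.57% of all genes were at least 2-fold higher at the 4 times in order and 4.2%, 6.66%, 10% and 6.44% lower. FIB2 alone was 2-fold higher at 8 h (7.42% of all genes) and PRH75 alone 2-fold lower at 12 h (7% of all genes). The values of 10 min were above t0 in 9 of 9 members and 30.3% of all genes. A spline of 3 degrees of freedom over the 8 WT libraries called 0 of 9 members and 0 of 18906 genes by limma (3458 genes at an unadjusted p below 0.05). Such a curve fits a high of 1 library only in part.

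The genotypes were compared at each time in a fit of 16 groups, in which the WT library is assumed to vary like the coi1 pairs. At 4 of the 8 times, t0 with 2 h, 8 h and 12 h, both coi1 libraries were above the WT library for 9 of 9 members, against 24.8%, 34.2%, 47% and 38.1% of all genes. The difference passed the test at 2 h for NUC1 (2.02 ± 0.37, adjusted p = 0.00466), PRH75 (1.43 ± 0.28, adjusted p = 0.00708) and APUM23 (0.70 ± 0.17, adjusted p = 0.02), 3 of 9. At that time 5.86% of all genes were called higher in coi1 and 12.9% lower, 18.8% in either direction. APUM23 lost its call without the second coi1 library of 2 h. In that comparison the leaf mesophyll markers summed to 39920 TPM in the WT library and to 63600 and 64200 in the coi1 libraries. CAB1 (1.64, adjusted p = 0.0023) and CAB3 (5.31, adjusted p = 0.000199) were called higher in coi1, 2 of 5, and RBCS1A, CA1 and RCA (-0.34 to -0.25) were not called; their part in the result was not tested. AT3G05060 (1.12 ± 0.37, adjusted p = 0.0636) and CBF5 (1.14 ± 0.44, adjusted p = 0.098) stood apart by similar amounts with no call. At t0 and 8 h NUC1 was 1.0 ± 0.37 (adjusted p = 0.452) and 1.18 ± 0.37 (adjusted p = 0.375) higher in coi1. No member was called at t0, 10 min, 30 min, 8 h or 12 h, where 0.445%, 0.339%, 4.64%, 0.663% and 0.471% of all genes were called in either direction and 1, 0, 0, 6 and 1 of 9 members had an unadjusted p below 0.05.

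The order was turned at 10 min, with both coi1 libraries below the WT library for every member and for 41.4% of all genes. Those differences ran from -0.13 for APUM23 to -1.02 for FIB2. At 1 h both coi1 libraries were below WT for 8 of 9 members and 48.2% of all genes, NUC1 being the exception. The mesophyll markers of 1 h summed to 38280 TPM in WT and to 68050 and 69100 in coi1. Of the 5, 2 were called higher in coi1 and 0 lower, where 6.13% of all genes were called higher. Their differences ran from -0.75 to 4.90, and their part in the result was not tested. No member was called at 1 h (0 of 9; 15.8% of all genes; 4 members at an unadjusted p below 0.05), the largest differences being -1.57 ± 0.60 for AT5G27120 (adjusted p = 0.109) and -1.37 ± 0.48 for NOP56 (adjusted p = 0.0831). By mean, 4 h was the high point of both genotypes, except for APUM23 in coi1, which was highest at 2 h. At 4 h both coi1 libraries were below WT for 9 of 9 members and 55.9% of all genes. The differences ran from -0.13 for APUM23 to -0.39 ± 0.60 for AT5G27120. None was called at 4 h (0 of 9; 1.55% of all genes) and none had an unadjusted p below 0.05.

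Whether coi1 changed differently from WT was tested as the difference of the 2 changes. For the step from t0 to 1 h the change in coi1 was more negative in 9 of 9 members, from -0.28 ± 0.25 for APUM23 to -2.47 ± 0.92 for FIB2, and 0 of 9 were called (4.41% of all genes), with 7 members at an unadjusted p below 0.05 and adjusted p from 0.118 for PRH75 to 0.595 for APUM23. The fall in coi1 was thus not shown to differ from the change in WT for any member. From 1 h to 4 h the differences ran from -0.04 ± 0.52 for NUC1 to 1.18 ± 0.85 for AT5G27120, and from 4 h to 12 h from 0.48 ± 0.25 for APUM23 to 1.18 ± 0.52 for NUC1, with 0 of 9 called in each (2.95% and 0.329% of all genes). For 10 min minus t0, a step added after the values were seen because WT stood above t0 and coi1 below, 0 of 9 were called (0.0911% of all genes); FIB2 differed by -2.13 ± 0.92 (unadjusted p = 0.0432, adjusted p = 1). Over all times together 0 of 9 members differed between genotypes (12.5% of all genes), the nearest being NUC1, 0.59 ± 0.21 higher in coi1 (adjusted p = 0.0705), which was called without the WT library of 4 h, at 0.72.

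**Figure D3:**
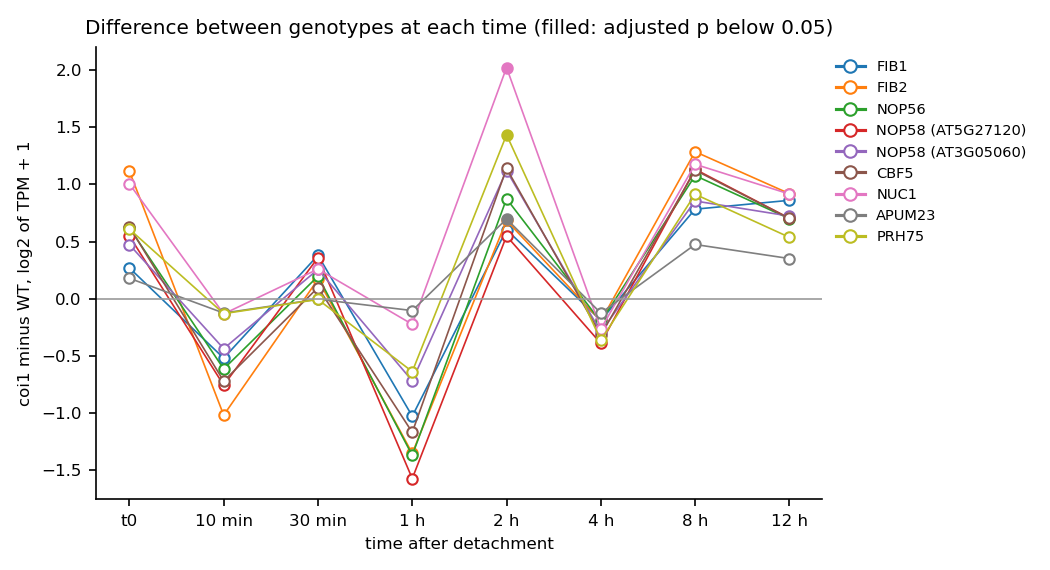
Log2 difference of TPM + 1 between coi1 (mean of 2 libraries) and WT (1 library) for the 9 genes at 8 times; filled points passed an adjusted p of 0.05 and SE, which runs from 0.17 for APUM23 to 0.65 for FIB2, is not drawn. The points lie above 0 at t0, 2 h, 8 h and 12 h and below it in the 10 min, 1 h and 4 h groups, and only the 2 h points of NUC1, PRH75 and APUM23 are filled.

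Within the duplicated genes the balance of the copies moved with time. FIB2 in percent of FIB1 stood in coi1 at 21.49 and 23.06 at t0, 11.11 and 9.514 (1 h), 39.96 and 39.85 (4 h), 45.81 and 23.72 (8 h), and 27.73 and 27.20 (12 h). In WT FIB2 was 11.74% of FIB1 at t0, 14.57% (1 h), 40.08% (4 h), 22.81% (8 h) and 25.74% (12 h). The first coi1 library of 8 h had the highest ratio of all 24. The 3 libraries of 4 h thus lay within 1 percentage point of each other in both genotypes, while the t0 libraries of the genotypes were apart. FIB1 remained the more abundant copy in all 24 libraries. In the NOP58 pair the copies changed rank: AT5G27120 was 69.27% of AT3G05060 in WT at t0 and 143.8% (4 h), and in coi1 it was 73.10% and 74.01% at t0, 37.42% and 35.75% (1 h), and 132.5% and 135.8% (4 h). At 8 h the coi1 libraries gave 136.1% and 106.7%, and at 12 h 96.15% and 90.58%. These ratios are a description with no test. Near-identical copies can share reads, which RSEM divides between them by estimate, so the share of each copy is less certain than the sum of the pair.

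**Figure D4:**
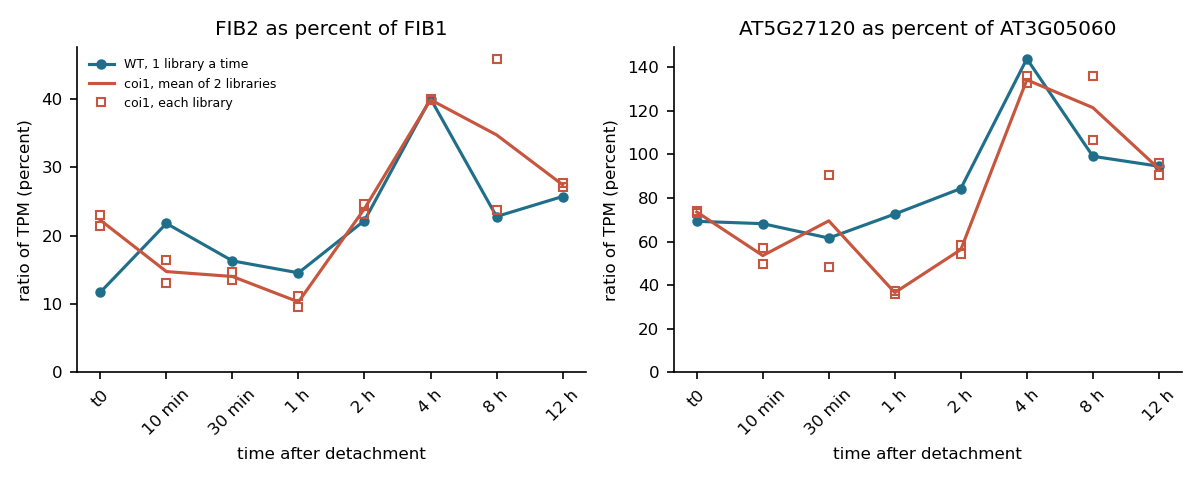
Ratio of TPM of the 2 copies in percent, in each library by time: FIB2 to FIB1 on the left and AT5G27120 to AT3G05060 on the right. Both ratios are high in the 3 libraries of 4 h (39.85% to 40.08% on the left, 132.5% to 143.8% on the right) and lowest in the 1 h libraries of coi1; on the left the first coi1 library of 8 h stands higher still, at 45.81%.

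Other genes of ribosome biogenesis were counted in the same steps. Of 51 such genes whose protein the annotation names, 49 were measured in coi1. At 1 h 34 of 49 were lower and 0 higher, at 4 h against 1 h 43 were higher and 0 lower, and at 12 h against 4 h 43 were lower and 0 higher, against the shares of all genes given for the members. Their medians were -0.94, 1.80 and -1.20, and those over all genes -0.17, 0.08 and 0.18. Against t0 the 4 h libraries were called higher for 21 of 49, where 7.39% of all genes were. In WT 45 of the 49 were highest at 4 h, against 21.2% of all genes. There 34 of the 49 were at least 2-fold above t0 on the log2(TPM + 1) scale, against 9.95% of all genes.

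Among the RNA polymerase I genes the catalytic subunits fell and rose, NRPA1 with -1.47 ± 0.28 (adjusted p = 0.00352) and then 2.55, and NRPA2 with -1.82 ± 0.25 (adjusted p = 0.000826) and then 2.51. RRN3, known from yeast and mammals as an initiation factor of that polymerase, was called in neither step (0.36 and 0.01). Of 4 box H/ACA genes beside CBF5, NOP10 went from -1.72 (adjusted p = 0.011) to 2.64, and GAR1 at AT3G03920 from -1.26 (adjusted p = 0.0264) to 2.53. Its second copy at AT5G18180 was called in neither step (-0.43 and -0.10).

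In the small subunit processome 12 of 15 genes fell at 1 h, where 20.5% of all genes were called lower. From 1 h to 4 h 14 of 15 rose, where 17.8% of all genes were called higher. The largest changes were those of RRP5 (-2.11 ± 0.20, adjusted p = 0.000119, then 2.88) and the helicase RH29 (-2.0 ± 0.22, adjusted p = 0.000284, then 2.83). Large subunit assembly had 11 of 19 lower and then 17 of 19 higher, led by MDN1, known from yeast as the AAA ATPase that strips assembly factors (-1.83 ± 0.22, adjusted p = 0.000389, then 2.73), and SWA2 (-1.60, adjusted p = 0.00334, then 2.69). Of 6 exosome and exonuclease genes 5 fell and 5 rose, RRP4 most (-1.05, adjusted p = 0.0228, then 1.97). RRP41 of the exosome core was not called (0.11 and 0.27).

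For 4 of these 49 genes the change from t0 to 1 h also differed between the genotypes, where 2.46% of all genes were called lower: MDN1 (-2.06 ± 0.38, adjusted p = 0.0141), RRP5 (-2.02 ± 0.34, adjusted p = 0.00945), NRPA2 (-1.94 ± 0.44, adjusted p = 0.0378) and RH29 (-1.77 ± 0.39, adjusted p = 0.0316). At 2 h the median difference of the 49, coi1 minus WT, was 1.10, against -0.12 over all genes. Of the 49, 31 were called higher in coi1 than in WT and 0 lower, where 5.86% of all genes were called higher and 12.9% lower. This count, like that of the members, rests on the single WT library of 2 h. These included SWA2 (1.53 ± 0.37, adjusted p = 0.0171) and the pre-rRNA factor YAO (1.57 ± 0.30, adjusted p = 0.00567). At 1 h 10 of 49 were lower in coi1 than in WT, where 9.72% of all genes were.

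**Figure D5:**
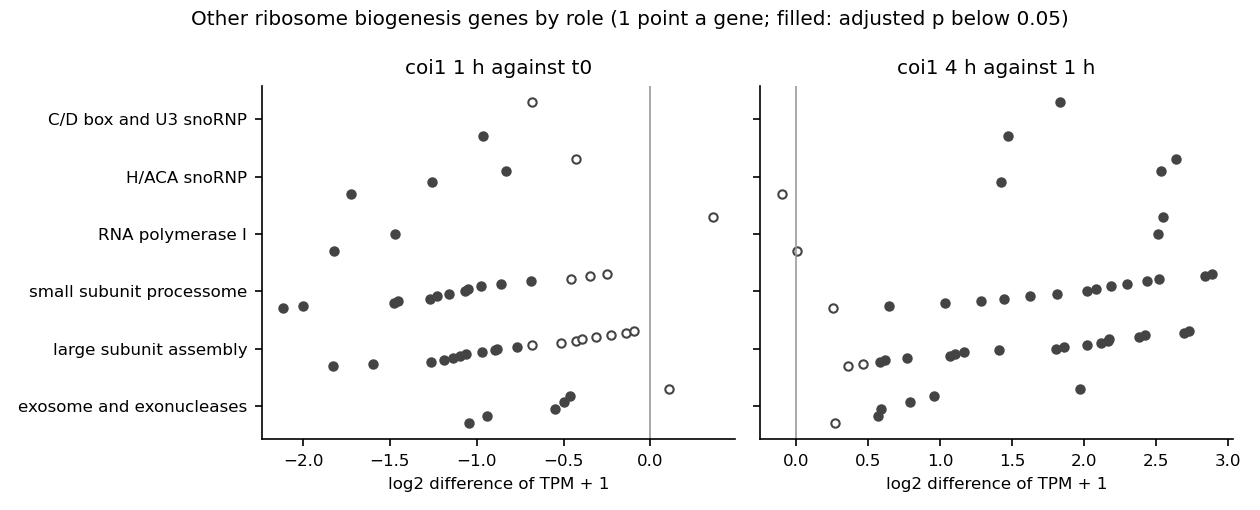
Log2 differences of TPM + 1 in coi1 for 49 other ribosome biogenesis genes by role, at 1 h against t0 and at 4 h against 1 h; 1 point is 1 gene, and filled points passed an adjusted p of 0.05. In the first step 34 points are filled, all below 0, and in the second 43, all above 0.

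The genes closest in pattern to the members' mean over the 16 genotype-by-time means of log2(TPM + 1), among 10653 genes with a mean of at least 10 TPM, were the DEAD-box helicase gene STRS2 (AT5G08620, r = 0.99) and AT2G37990, of the RRS1 family of ribosome biogenesis regulators and one of the 51 other genes (r = 0.99). HD2B, a histone deacetylase, followed with the WD-repeat genes AT1G29320, AT5G11240 and AT4G28450, AT2G34357 and AT3G18600, with r of 0.987 or more. STRS2 averaged 5.08 TPM in coi1 (1 h) and 31.9 (4 h), and HD2B 61.1 and 280 TPM. A total of 304 genes had r of at least 0.9, and the median r was -0.01. Among the members, r with the mean of the other 8 was highest for AT3G05060 (0.993) and lowest for APUM23 (0.787) and PRH75 (0.765). These correlations are over points that share libraries and are descriptions.

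No marker of dividing cells was called higher at 4 h, against t0 or against 1 h. Of 6 such markers 1 was called lower in coi1 at 4 h against t0, with a median of -0.84. There 6.62% of all genes were called lower and 7.39% higher. These 6 genes of replication and mitosis summed to 44.99 and 50.67 TPM in coi1 at t0, 17.37 and 32.90 (1 h), and 25.40 and 24.20 (4 h), and in WT to 49.15 at t0 and 20.32 (4 h), the lowest WT value. At 1 h in coi1 2 of 6, PCNA1 (-1.41, adjusted p = 0.0196) and MCM5 (-1.18, adjusted p = 0.0373), fell, where 20.5% of all genes were called lower. Between 1 h and 4 h 0 of 6 were called, where 27.2% of all genes were called in either direction. In whole explants fewer cells of a type and less RNA per cell cannot be told apart. Of 25 loci that the annotation names as 40S or 60S ribosomal proteins, a partial list of that family, 17 were measured; 0 of them were called at 1 h (median -0.35; 20.5% of all genes were called lower), and 5 rose and 0 fell from 1 h to 4 h (median 0.75; 17.8% of all genes were called higher). The difference between these and the members was not tested.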

How the data were processed

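RNA of whole leaf explants was sequenced, and the deposited values are TPM per locus, in 1 table for WT and 1 for coi1, so levels are set across 2 tables. RSEM 1.3.2, STAR 2.7.2b and Trim Galore 0.5.0 are the tools and TAIR10 the build that the submitters' processing notes name for what the authors did; parameters, annotation version, strand setting and filters are not given in the sources used here. Every column sums to 1000000 TPM within rounding. The 24 columns that match a sample label were used, and 8 other columns of the WT table, numbered as replicate 2 at each of the 8 times, match no label used here and were not.

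Fits were made with limma 3.58.1 in R 4.3.3 on log2(TPM + 1), with a trend, on genes that reached 1 TPM in 2 or more of the libraries fitted, with Benjamini-Hochberg adjustment over all genes and calls below 0.05. The coi1 fit held 16 libraries in 8 time groups (8 residual degrees of freedom). The fit at each time held 16 groups of 24 libraries (8, all from the coi1 pairs). The fit over all times was additive in genotype and time (15), and the WT spline, made with splines 4.3.3, left 4. The code was tested on simulated data. Tables and figures used Python 3.11.15, pandas 2.3.3 and matplotlib 3.10.9.

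Names, gene positions and promoters came from RefSeq TAIR10.1, which holds 37390 of the 37686 loci; the deposited tables hold no coordinates. Of 68 genes listed for ribosome biogenesis 17 were dropped because the annotation names another protein or none. All members, the genes of that list and the 8 closest in pattern were eligible to be named. Members and lists were chosen with earlier results of these data known. Alternatives were another pseudocount (0.1), no filter or a filter of 5 TPM, rescaling by median of ratios, a replicate block, the compared libraries alone, a spline of 4 degrees of freedom and leaving out libraries.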

Additional observations from a re-analysis of the deposited data

How the results depend on the processing

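Over all alternatives, 1913 of 2034 values of single members kept direction and side of the threshold, 59 lost a call, 14 gained one and 48 changed sign; these 48 were called neither in the full fit nor in the alternative. The rise from 1 h to 4 h in coi1 kept 8 to 9 called members in every alternative run. With the 4 compared libraries fitted alone, 1 member was called at 2 h against t0 (NUC1, in place of 0) and 7 at 4 h against t0 (in place of 4). Over all genes the count at 4 h against t0 was 4560 in that fit, in place of 2708. Leaving out 1 library gave 3 to 7 called members at 1 h (8 with all), 0 to 0 at 4 h against t0, 2 to 5 at 12 h against 4 h (7 with all), 0 to 1 at 12 h against t0 and 0 to 1 at 30 min. Of the genotype comparisons it gave 2 to 3 at 2 h, 0 to 2 at 8 h (NUC1 and PRH75 without the second coi1 library of 8 h), 0 to 1 at 30 min (FIB1 without the first) and 0 to 1 over all times (NUC1 without WT 4 h). Where this left 1 library in a group, that library was taken to vary like the other groups. These alternatives leave fewer libraries; otherwise the cause was not tested.

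Whether replicate numbers pair the coi1 libraries was not settled: of 28 correlations of pair differences between times, 7 were over 0.1 (range -0.316 to 0.504). With the replicate block the called members were 7 at 1 h, 8 at 4 h against 1 h, 3 at 4 h against t0 and 6 at 12 h against 4 h. Counts over all genes also varied over the 6 alternatives other than leaving out 1 library, this block among them. They ran from 2967 to 6051 at 1 h and from 4691 to 7053 at 4 h against 1 h. At 4 h against t0 they ran from 2426 to 4560, and at 12 h against 4 h from 3966 to 9649.

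Counts over all genes moved more. With libraries left out or fitted alone they ran from 2965 to 4994 at 1 h (6038 in the full fit), 698 to 4560 at 4 h against t0 (2708), 1520 to 9649 at 12 h against 4 h (4617) and 2571 to 7053 at 4 h against 1 h (5251), and at 10 min and 30 min the 4 libraries alone called 0 (103 and 1784). The replicate block took the genotype count over all times from 2476 to 927. In WT, 102 genes and 0 members were called by the spline with a pseudocount of 0.1. Without coi1 t0 replicate 2 the count at 30 min against t0 fell to 140 and without 30 min replicate 1 it was 7894. The genotype count at 30 min (917) was 6762 without coi1 30 min replicate 1 and 1145 without replicate 2. Leaving out the WT library of 2 h took the WT spline from 0 genes to 801, with 0 members.

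The values that changed sign are log2 differences. After rescaling by median of ratios, 30 min against t0 gave 0.0021 for AT5G27120, 0.14 for AT3G05060 and 0.18 for APUM23. APUM23 then stood at 0.026 (1 h) and -0.067 (8 h), and at 12 h FIB1 stood at -0.11 and AT5G27120 at -0.033. Genotype at 30 min gave 0.096 for APUM23 and 0.097 for PRH75 (0.0295 with the replicate block), and the difference in change from 1 h to 4 h 0.0011 for APUM23. Leaving out 1 library at a time, 30 min against t0 ran from -0.73 to 0.97 for FIB1, -1.36 to 0.35 for FIB2, -0.97 to 0.33 for NOP56, -1.01 to 0.63 for AT5G27120, -0.45 to 0.34 for AT3G05060 and -0.15 to 0.14 for APUM23. Genotype at 30 min ran from -0.47 to 1.23 for FIB1, -0.69 to 1.02 for FIB2, -0.46 to 0.85 for NOP56, -0.46 to 1.18 for AT5G27120, -0.14 to 0.65 for AT3G05060, -0.34 to 0.53 for CBF5, -0.14 to 0.13 for PRH75 and -0.15 to 0.14 for APUM23. Against t0, 2 h ran from -0.045 to 0.25 for FIB1, -0.017 to 0.18 for NOP56, -0.0603 to 0.202 for AT5G27120 and -0.072 to 0.18 for PRH75. At 8 h the ranges were -0.29 to 0.75 for NUC1, -0.67 to 0.081 for PRH75 and -0.087 to 0.22 for APUM23, and at 12 h -0.21 to 0.28 for FIB1, -0.19 to 0.40 for AT5G27120 and -0.48 to 0.027 for AT3G05060. Genotype ran from -0.081 to 0.31 over all times for AT5G27120 and from -0.47 to 0.02 at 1 h for NUC1, and the difference in change from 1 h to 4 h from -0.29 to 0.203 for NUC1 and -0.098 to 0.054 for APUM23.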
